A study of Arabidopsis thaliana with 15 samples.

Results

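MYB transcription factor genes of Arabidopsis thaliana were taken as the nuclear protein coding genes whose symbol or synonym in the TAIR10 annotation is MYB followed by digits only. The name matched 125 genes, of which 3 were set aside, so 122 members were described among 27444 nuclear protein coding genes. Of the 122 members, 113 carried such a name as their primary symbol and 9 as a synonym only. The mark class of a gene followed from peaks over its body or over an upstream window of 750 bp from the transcription start site (TSS). The name rule used no measured value, but the members were chosen with earlier results of these data known. WRKY genes, matched in the same way, formed another large transcription factor family for side by side values (n = 71).

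The study asked how marks of Polycomb Group (PcG) complexes relate to chromatin accessibility, and mapped them by chromatin immunoprecipitation and sequencing (ChIP-seq) of 10-day-old whole seedlings, all in the Col-0 strain. Its 14 ChIP libraries formed 7 groups of 2 replicates, which were emf1, ring1ab and wild type (wt) for H2AK121ub, and emf1, ring1ab, lhp1 and wild type for H3K27me3, beside 1 wild-type input. The antibodies were Anti-H2Aub and anti-H3K27me3. The values here came from 2 lists of wild-type consensus peaks, 1 for each mark, and no value of a mutant was used. By the methods, final peaks are the intersection of the peaks called in each replicate, so a stretch called in a single replicate would be left out. The lists hold 1 set of positions for each mark without signal, so depth is unknown. No spread between plants can be given, and no test over samples was possible. A gene without a peak is a gene without a call. The methods of the study describe combining these wild-type data with data of younger wild-type seedlings to define the final peaks, so the positions may rest on both ages, which the files themselves do not show. Whole seedlings mix cell types, so marks of the same cells and of different cells cannot be told apart.

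MYB proteins bind DNA through repeats of the MYB domain, and plants use the family widely to switch on or hold back single metabolic pathways, cell fates and responses to stress. PcG proteins help to repress such regulators outside the cells, stages or conditions in which they act. For genes with H2AK121ub alone, the paper proposes chromatin that is less accessible yet permissive, with expression above that of genes with H3K27me3. Expression was not used here. PRC2 places 3 methyl groups on lysine 27 of histone H3 (H3K27me3), and PRC1 places a ubiquitin on histone H2A (H2AK121ub).

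The range of states within the family was shown by 5 closely related genes, picked as an example with results of these data known. They do not stand for close relatives in general. Among the 29 pairs of closest relatives with at least 60% identity, 28 were alike in whether the body carried H3K27me3. Of the 5 genes, only MYB94 and MYB96 reached that identity with each other. MYB94, MYB31, MYB96, MYB60 and MYB30 encode proteins that were 51.8% to 73.3% identical to each other in all 10 pairings, and they fell into all 4 mark classes. MYB94, MYB96 and MYB30 activate the synthesis of very long chain fatty acids and waxes, and MYB60 acts in guard cells. MYB94 (AT3G47600, chr3:17539289-17541307, minus strand) was only-H3K27me3, with 100% of its body under a peak of 10338 bp (chr3:17538141-17548478) and none under H2AK121ub. MYB31 (AT1G74650, chr1:28041146-28043022, plus strand) had 100% of its body under both marks. Its H2AK121ub peak of 10888 bp (chr1:28039562-28050449) was the longest at any member, and its H3K27me3 peak spanned 14227 bp. MYB96 (AT5G62470, chr5:25078991-25081141, minus strand) lay wholly under an H3K27me3 peak of 9714 bp (chr5:25078700-25088413). A short H2AK121ub peak of 476 bp (chr5:25079854-25080329) covered 22.1% of its body, between 812 and 1287 bp downstream of the TSS. MYB60 (AT1G08810, chr1:2819065-2820478, minus strand) was only-H2AK121ub, and a peak of 1470 bp (chr1:2818979-2820448) covered 97.9% of its body. MYB30 (AT3G28910, chr3:10911132-10913190, plus strand) was reached by no peak of either list.

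**Figure D1:**
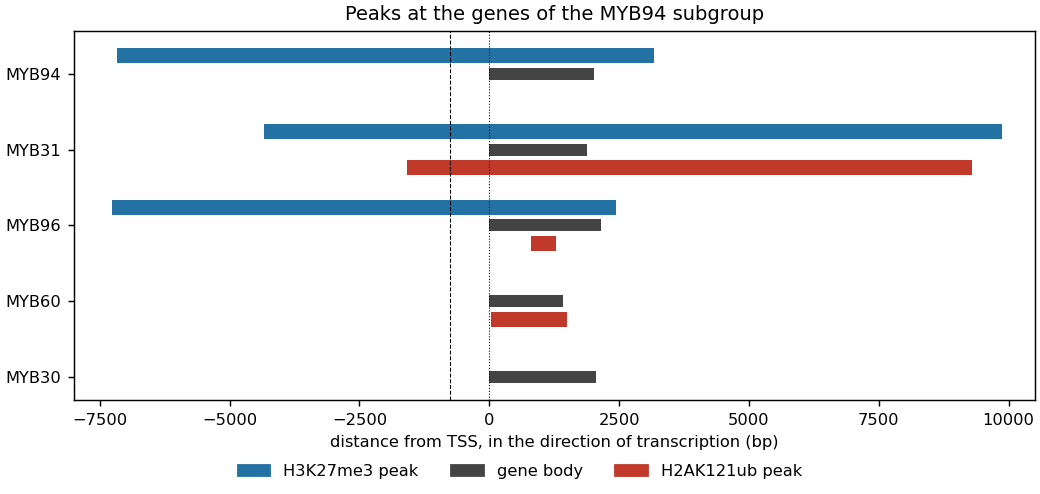
Peaks at 5 closely related MYB genes, with the distance from the TSS in bp on the horizontal axis, the gene body in grey, H3K27me3 peaks in blue and H2AK121ub peaks in red. The dotted line marks the TSS and the dashed line the far end of the 750 bp upstream window. MYB94 and MYB96 each have a long H3K27me3 peak that starts far upstream, MYB31 lies inside long peaks of both marks, MYB60 has H2AK121ub alone, and MYB30 has no peak.

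The promoters of these 5 genes are shown because the proteins are alike and the marks are not. Each sequence is the 250 bases upstream of the TSS, read from the RefSeq copy of the genome (TAIR10.1) on the strand of the gene. Capitals mark GAGAGA repeats and the telobox AAACCCTA on either strand, both of which are motifs known from plant Polycomb response elements. The windows are chr3:17541308-17541557 for MYB94, chr1:28040896-28041145 for MYB31, chr5:25081142-25081391 for MYB96, chr1:2820479-2820728 for MYB60 and chr3:10910882-10911131 for MYB30. H3K27me3 covered all 250 bases at MYB94, MYB31 and MYB96, H2AK121ub covered all of them at MYB31, and the windows of MYB60 and MYB30 lay under neither mark.
MYB94: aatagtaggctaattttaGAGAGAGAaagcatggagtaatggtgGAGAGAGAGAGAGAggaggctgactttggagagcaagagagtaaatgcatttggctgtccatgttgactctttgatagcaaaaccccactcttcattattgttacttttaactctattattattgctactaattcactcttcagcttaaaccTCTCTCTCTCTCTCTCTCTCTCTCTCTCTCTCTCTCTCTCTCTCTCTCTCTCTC
MYB31: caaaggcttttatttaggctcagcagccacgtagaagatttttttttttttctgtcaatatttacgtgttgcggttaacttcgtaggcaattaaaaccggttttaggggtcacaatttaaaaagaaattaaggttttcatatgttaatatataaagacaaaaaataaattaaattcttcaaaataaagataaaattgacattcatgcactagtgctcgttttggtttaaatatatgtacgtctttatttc
MYB96: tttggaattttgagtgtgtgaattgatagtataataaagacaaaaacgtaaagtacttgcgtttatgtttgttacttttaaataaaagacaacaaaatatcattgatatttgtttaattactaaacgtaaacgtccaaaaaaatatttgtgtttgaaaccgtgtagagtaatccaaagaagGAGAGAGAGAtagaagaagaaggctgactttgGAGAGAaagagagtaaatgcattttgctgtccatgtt
MYB60: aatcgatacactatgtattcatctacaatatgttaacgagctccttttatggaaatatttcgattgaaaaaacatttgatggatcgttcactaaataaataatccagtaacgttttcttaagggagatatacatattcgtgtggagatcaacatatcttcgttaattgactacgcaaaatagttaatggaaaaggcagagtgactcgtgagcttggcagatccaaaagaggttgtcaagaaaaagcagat
MYB30: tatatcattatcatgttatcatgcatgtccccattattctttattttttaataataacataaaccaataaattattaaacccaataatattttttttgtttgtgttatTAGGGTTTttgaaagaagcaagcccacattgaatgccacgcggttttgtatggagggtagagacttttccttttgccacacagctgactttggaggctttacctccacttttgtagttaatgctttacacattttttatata
The MYB94 window held 32 GAGAGA matches with overlaps counted, most of them in a run of TC that ends at the TSS. The MYB96 window held 4 such matches, the MYB30 window held 1 telobox, and the windows of MYB31 and MYB60 held neither motif. A run of 18 bases, aagagagtaaatgcattt, stood in the windows of MYB94 and MYB96, and in these 2 of the 27444 promoter windows of the same length only. Counted from the TSS, it began at -172 bp in MYB94 and at -31 bp in MYB96. A run of 13 bases, gctgactttggag, was shared by MYB94, MYB96 and MYB30, where it began at -188 bp, -47 bp and -60 bp, and occurred in 3 of the 27444 windows. In MYB94 and MYB96 the run of 13 bases lay just upstream of the run of 18 bases, at the same spacing. The 2 runs are there parts of a single similar stretch and do not count as separate matches. Both runs were chosen after their sequences had been seen. The run of 13 bases stood in genes with H3K27me3 and in MYB30 alike, and MYB31, which carries H3K27me3 over its whole window, had neither run.

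Over the family, most members carried at least 1 mark. H2AK121ub was present at 90 of 122 members (73.8%), against 63 of 71 WRKY genes (88.7%) and 68.1% of all protein coding genes. H3K27me3 was present at 79 members (64.8%), against 37 WRKY genes (52.1%) and 29.2% of all protein coding genes. For H3K27me3 the MYB share was over 2 times that of all genes, and for H2AK121ub the shares lay close together. Of the members, 58 (47.5%) were H2AK121ub/H3K27me3, against 34 WRKY genes (47.9%) and 24.2% of all genes. Members with H2AK121ub alone numbered 32 (26.2%), against 29 WRKY genes (40.8%) and 43.9% of all genes. The only-H3K27me3 class held 21 members (17.2%), against 3 WRKY genes (4.23%) and 4.93% of all genes. The remaining 11 members (9.02%) carried neither mark, against 5 WRKY genes (7.04%) and 26.9% of all genes. MYB and WRKY genes therefore had nearly the same share with both marks, and the families parted in the only-H3K27me3 and only-H2AK121ub classes. Of the members with H2AK121ub, 58 of 90 (64.4%) also carried H3K27me3, against 34 of 63 WRKY genes (54.0%) and 35.6% of all genes. None of these differences was tested, since genes of a family share ancestry and neighbours share peaks.

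**Figure D2:**
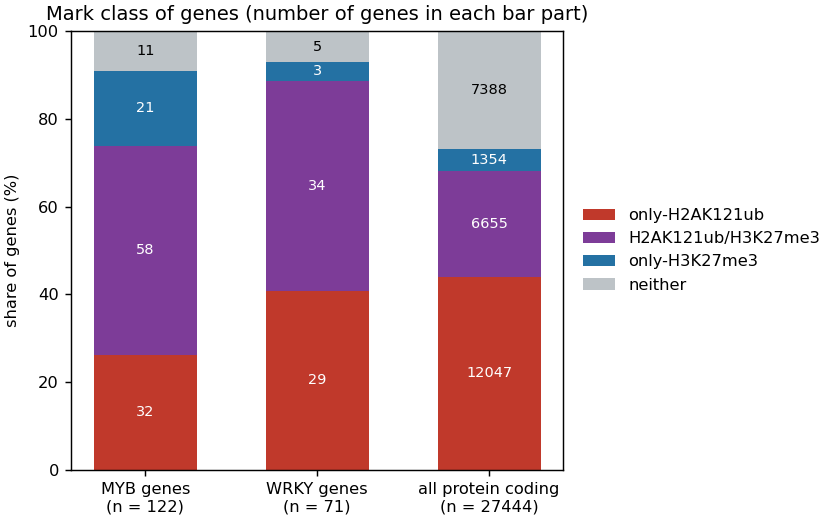
Share of genes in each mark class in percent, for MYB genes, WRKY genes and all nuclear protein coding genes, with the number of genes written in each bar part. The only-H3K27me3 part holds 17.2% of the MYB genes, 4.23% of the WRKY genes and 4.93% of all genes, while the part with both marks is about as large in MYB as in WRKY genes.

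Where a member carried a mark, the mark usually lay over most of the gene. H3K27me3 covered 100% of the body of 56 members (45.9%), against 28 WRKY genes (39.4%) and 12.2% of all protein coding genes. These were 70.9% of the MYB genes with the mark, 75.7% of the WRKY genes with it and 41.8% of all genes with it. A further 12 members had at least 50% of the body covered, 5 had less and 6 had none, because the peak lay in the upstream window alone. H2AK121ub covered 100% of the body of 26 members (21.3%), against 12 WRKY genes and 8.33% of all genes. It covered 50% to below 100% in 43 members and less than 50% in 21, and no member carried H2AK121ub through the upstream window alone, against 1 WRKY gene and 7.04% of all genes. The median body cover of genes with H2AK121ub was 86.6% for MYB genes, 78.4% for WRKY genes and 37.9% for all genes. The matching medians for H3K27me3 were 100% for MYB genes, 100% for WRKY genes and 88.8% for all genes.

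The cover of H2AK121ub was broad also where H3K27me3 was missing. In the only-H2AK121ub class the median body cover was 79.8% in MYB genes, 39.6% in WRKY genes and 26.5% in all genes. In the class with both marks it was 90.7% in MYB genes, 91.6% in WRKY genes and 73.2% in all genes. Gene length had a median of 1790.5 bp for MYB genes, 2110 bp for WRKY genes and 2078 bp for all genes. Among genes of 1000 to 2500 bp, a range chosen after seeing the data, the only-H2AK121ub medians were 82.1% for MYB genes and 37.5% for all genes. The same range kept H3K27me3 at 71 of 111 MYB genes (64.0%), against 32.8% of 12860 genes. Exons and introns were both covered. H2AK121ub lay over 59.2% of the coding bases of members and 58.6% of their intron bases, against 27.9% and 18.2% in all genes. H3K27me3 lay over 55.3% of the coding bases and 67.1% of the intron bases of members, against 15.1% and 12.8% in all genes.

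Around the TSS the marks had different shapes. The share of MYB genes under H2AK121ub was 23.0% at 750 bp upstream, 47.5% at the TSS and highest at 300 bp downstream, with 67.2%. It was still 58.2% at 1000 bp and 31.1% at 2000 bp. WRKY genes reached 76.1% at 300 bp, and all protein coding genes 51.3% at 350 bp and 27.1% at 1000 bp. At 750 bp upstream the families did not stand apart, with 23.0% of MYB genes, 25.4% of WRKY genes and 24.2% of all genes under a peak. H3K27me3 ran nearly level through the MYB genes, with 49.2% at 1000 bp upstream, 54.1% at the TSS, 57.4% at 400 bp downstream and 50% at 2000 bp. In all genes it was 20.1% at 1000 bp upstream, 17.7% at the TSS and 20.2% at 400 bp downstream. H2AK121ub lay over the TSS itself at 58 members and at 30.2% of all genes, and H3K27me3 at 66 members and at 17.7% of all genes.

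**Figure D3:**
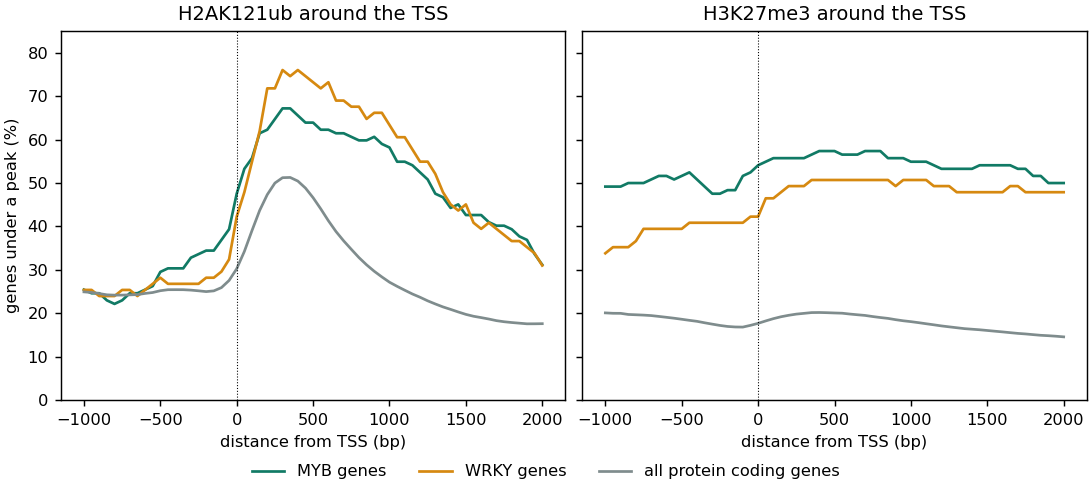
Share of MYB genes, WRKY genes and all nuclear protein coding genes under a peak, in percent, by distance from the TSS in bp, with H2AK121ub on the left and H3K27me3 on the right. The MYB line for H2AK121ub is highest at 300 bp downstream (67.2%), and the MYB line for H3K27me3 stays between 47.5% and 57.4% over the whole window.

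Each peak was also placed by its ends. The 92 pairings of an H2AK121ub peak with a member ran at the median from -98.5 bp to 1825.5 bp relative to the TSS, and 33 of them began downstream of it. H3K27me3 peaks ran at the median from -3139 bp to 2881 bp, and 60 of 80 pairings passed the end of the gene. At only-H3K27me3 members the median H3K27me3 peak was 8440 bp, and at members with both marks it was 5751 bp. Peaks at members were longer than those of the full lists. The median was 2298.5 bp for the 92 H2AK121ub peaks at members and 978 bp for the list of 16310 peaks. For H3K27me3 it was 6224 bp for the 77 peaks at members and 2925 bp for the list of 4367 peaks. A longer peak reaches more genes by its length alone, which these medians do not allow for. With 2 exceptions for H2AK121ub and 1 for H3K27me3 (MYB305), each marked member met a single peak of the mark.

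The members were then taken by their roles, in 10 groups that hold 87 members, while 35 members had no group. The groups were drawn up with earlier results of these data known. Glucosinolate regulators, which control the sulphur-rich defence compounds of the cabbage family, were the only group whose members (6 of 6) all carried both marks. The share with both marks was 47.5% over all members and 24.2% over all protein coding genes. For MYB28, an activator of aliphatic glucosinolate genes, both marks covered 100% of the body. MYB29 had 55.0% of its body under H2AK121ub and 95.6% under H3K27me3. MYB76 had 100% under H2AK121ub and 92.9% under H3K27me3. Among the regulators of indolic glucosinolates, MYB122 had 100% under both marks and MYB51 had 90.8% under H2AK121ub and 84.0% under H3K27me3. MYB34 stood apart from the others of the group, with 96.7% of its body under H2AK121ub and 5.57% under H3K27me3. That value rested on a peak of 116 bp, the shortest H3K27me3 peak at a member.

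Of the 7 flavonoid and anthocyanin regulators, 4 carried both marks, 2 were only-H3K27me3 and 1 carried neither. The flavonol activators MYB11, MYB12 and MYB111 all carried both, with 90.5%, 100% and 92.4% of the body under H2AK121ub and 100%, 100% and 97.2% under H3K27me3. MYB5, a regulator of seed coat development, had 97.7% under H2AK121ub and 100% under H3K27me3. MYB113, an activator of anthocyanin synthesis, and its close relative MYB114 were only-H3K27me3, with 100% of each body covered. The protein read from the genome had 246 residues for MYB113 and 139 for MYB114. MYB123 (TT2), the activator of proanthocyanidin synthesis in the seed coat, carried neither mark.

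Secondary wall and lignin activators numbered 14, of which 9 carried both marks, 3 were only-H3K27me3, 1 was only-H2AK121ub and 1 carried neither. The master switches MYB46 and MYB83 were both under H3K27me3 over 100% of the body, with 93.3% and 48.7% under H2AK121ub. MYB85, MYB103 and MYB52 were wholly under H3K27me3 with no H2AK121ub peak. The lignin activators MYB58 and MYB63 differed from these, since MYB58 carried no mark and MYB63 had 87.8% of its body under H2AK121ub alone. The 4 repressors of phenylpropanoid synthesis carried mostly H2AK121ub. MYB3, MYB7 and MYB32 were only-H2AK121ub with 95.9%, 91.8% and 72.5% of the body covered. MYB4, which holds back the sinapate ester branch, had 83.1% under H2AK121ub and 30.5% under a short H3K27me3 peak of 513 bp. None of the 4 repressors lay wholly under H3K27me3, whereas 9 of the 14 activators did. The share was 45.9% over all members and 12.2% over all protein coding genes, and the contrast was not tested.

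Regulators of cuticle, suberin and Casparian strip numbered 13, and 10 of them carried H3K27me3, with 9 bodies wholly covered. H3K27me3 was present at 64.8% of all members and 29.2% of all protein coding genes. It covered the whole body of 45.9% and 12.2% of them. The median H2AK121ub cover of the group was 31.2%. MYB36, which switches on the Casparian strip genes of the endodermis, had 28.9% under H2AK121ub and 100% under H3K27me3. MYB41, an activator of suberin synthesis, had 100% under both. MYB9 and MYB107, which act on suberin of the seed coat, had 31.2% and 91.0% under H2AK121ub and 84.6% and 100% under H3K27me3. MYB16 and MYB106, regulators of the cuticle and of epidermal cell shape, were only-H2AK121ub, with 99.1% and 47.8% of the body covered.

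The 12 regulators of stamen, anther and pollen were spread over all classes, with 6 under both marks, 2 only-H2AK121ub, 2 only-H3K27me3 and 2 with neither. MYB21, which acts on stamen filaments downstream of jasmonate, had 86.9% of its body under H2AK121ub and 100% under H3K27me3. It also held the longest stretch under both marks at any member, 4035 bp (chr3:10306458-10310492). MYB24, with the same role, was only-H3K27me3. MYB57 had 82.6% under H2AK121ub and 65.5% under H3K27me3. The anther genes MYB33 and MYB65, known as targets of miR159, had bodies free of both marks. MYB33 was only-H3K27me3 through 23.6% of the upstream window, and MYB65 had neither mark. MYB35 (TDF1), a tapetum regulator, had neither mark as well. Of the 3 genes of pollen tube fate, MYB97 and MYB101 carried both marks and MYB120 was only-H2AK121ub with 93.6% of the body covered.

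Among 5 genes of female gametophyte and embryo, MYB64 and MYB119, which act in cellularisation of the female gametophyte, had 100% of the body under both marks. MYB98, the synergid regulator of pollen tube guidance, was only-H2AK121ub with 42.5% covered. MYB118 had 86.2% under H2AK121ub and 100% under H3K27me3, and MYB115 was only-H3K27me3. Of 7 genes of meristem, boundary and leaf, 5 were wholly under H3K27me3, against 45.9% of all members and 12.2% of all protein coding genes. MYB37 and MYB84, which with MYB38 promote axillary meristems, had 0% and 98% under H2AK121ub, and MYB38 had 100%. MYB105 and MYB117, genes of organ boundaries, lay wholly under both marks. MYB91 (AS1), a gene of leaf polarity that is active in leaf primordia, was only-H2AK121ub with 47.5% covered.

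Trichome and stomata genes (n = 5) had no member with both marks, against 47.5% of all members and 24.2% of all protein coding genes. MYB0 (GL1) and MYB23, which start trichomes, were wholly under H3K27me3 and free of H2AK121ub. MYB124 (FLP) and MYB88, which end the divisions of the stomatal lineage, were only-H2AK121ub with 37.96% and 19.95% of the body covered. The 14 genes of stress, hormone and nutrient response were all under H2AK121ub, 8 of them alone and 6 with H3K27me3. H2AK121ub was present at 73.8% of all members, 88.7% of WRKY genes and 68.1% of all protein coding genes. MYB44, MYB70, MYB73 and MYB77, close relatives that act in abscisic acid and auxin responses, were only-H2AK121ub, with 99.0%, 50.8%, 78.4% and 59.9% of the body covered. MYB2, a dehydration gene, had 82.7% under H2AK121ub and 53.4% under H3K27me3. MYB74, MYB102 and MYB112 had 100% under H2AK121ub and 99.9% to 100% under H3K27me3. The groups are small and were not tested against each other.

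**Figure D4:**
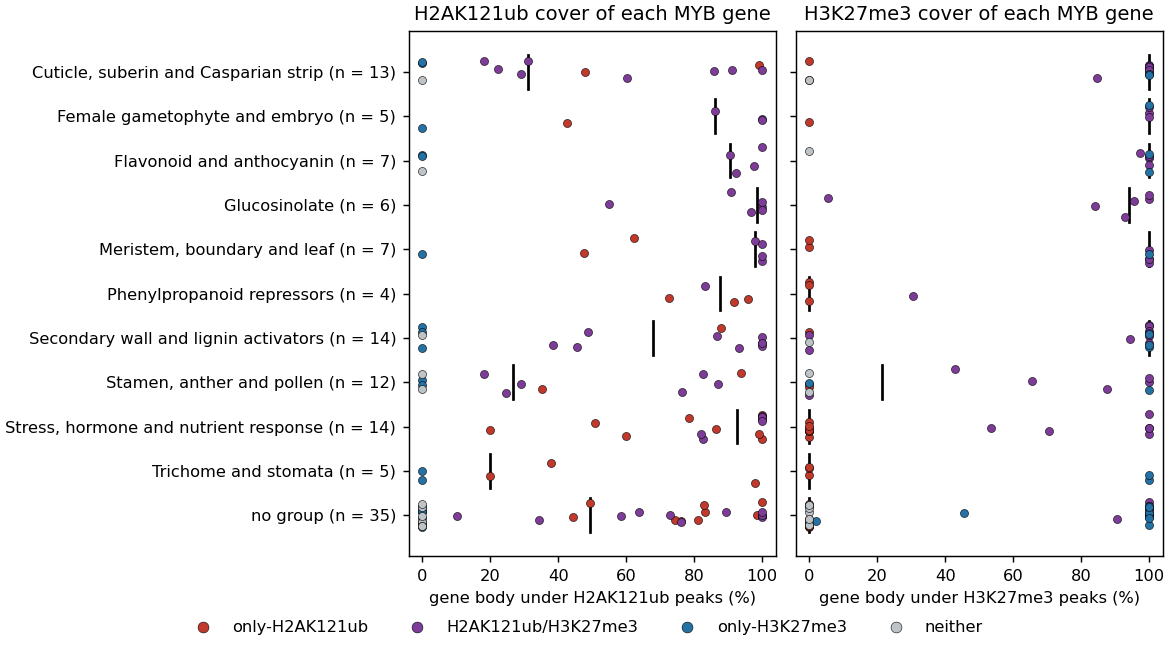
Each point is a MYB gene, placed by the percent of its body under H2AK121ub peaks (left) and H3K27me3 peaks (right), in rows by role, coloured by mark class, with a bar at the median of the group. Most H3K27me3 values lie at 0% or 100%, while H2AK121ub values fill the range between. The glucosinolate, phenylpropanoid repressor and stress groups hold no point at 0% of H2AK121ub.

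Across all members, H3K27me3 mostly covered either none or all of a gene body, and H2AK121ub was graded. Of the 58 members with both marks, H3K27me3 covered more of the body in 28, H2AK121ub more in 15, and both the same share in 15. These last 15 lay wholly under both marks, and were MYB12, MYB28, MYB31, MYB38, MYB40, MYB41, MYB64, MYB69, MYB86, MYB102, MYB105, MYB112, MYB117, MYB119 and MYB122. They made up 12.3% of the members, against 9.86% of WRKY genes and 3.32% of all genes. No matching split into 28, 15 and 15 is given here for other genes. Peaks at members had a median of 6224 bp for H3K27me3 and 2298.5 bp for H2AK121ub, beside a median gene length of 1790.5 bp. How far peak length shapes the cover was not tested. After MYB21, the longest stretches under both marks were 3765 bp at MYB12 (chr2:19475833-19479597), 3290 bp at MYB111 (chr5:19999033-20002322), 3177 bp at MYB47 (chr1:6449835-6453011) and 2869 bp at MYB28 (chr5:24689069-24691937). Counted as all bases of the body and upstream window under both marks, contiguous or not, the median of genes with both marks was 1668.5 bp for MYB genes, 1899 bp for WRKY genes and 869 bp for all genes.

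In 2 members (1.64%, against no WRKY gene and 1.28% of all genes) the marks lay on separate bases. MYB20 had 100% of its body under H2AK121ub, and its H3K27me3 peak of 14890 bp ended at -411 bp from the TSS. MYB1 had 10.1% of its body under an H2AK121ub peak of 207 bp, and its H3K27me3 peak ended at -446 bp from the TSS. Members with H3K27me3 in the upstream window alone were MYB1, MYB20, MYB25, MYB33, MYB61 and MYB97 (4.92%, against no WRKY gene and 6.29% of all genes). Their gene bodies were all free of H3K27me3, and 5 of the 6 carried H2AK121ub in the body.

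The only-H3K27me3 class held MYB0, MYB22, MYB23, MYB24, MYB33, MYB37, MYB52, MYB68, MYB81, MYB85, MYB87, MYB89, MYB92, MYB94, MYB103, MYB113, MYB114, MYB115, MYB116, MYB121 and MYB305. In 18 of these 21 the body was wholly covered. The exceptions were MYB33, MYB121 with 45.5% and MYB305 with 2.10%. MYB305 (chr3:8811011-8812483, minus strand) lay in the gap between an H3K27me3 peak of 16406 bp that ended in its last bases and another of 6977 bp that began at -336 bp from its TSS and ran away from the gene. The members with neither mark were MYB30, MYB35, MYB45, MYB55, MYB58, MYB65, MYB82, MYB100, MYB104, MYB109 and MYB123. By chromosome, the only-H3K27me3 members numbered 5 of 27 on chromosome 1, 1 of 13 on chromosome 2, 4 of 29 on chromosome 3, 2 of 17 on chromosome 4 and 9 of 36 on chromosome 5. The members with neither mark numbered 5 on chromosome 3 and 1 or 2 on each of the others.

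Some members shared a peak with a neighbour. The longest H3K27me3 peak at a member, 22012 bp (chr1:24750318-24772329), held both MYB113 and MYB114, whose bodies are 2536 bp apart. This peak also reached MYB90 (AT1G66390), which is among the genes set aside. MYB24 and MYB115 lay in a peak of 10678 bp (chr5:16136174-16146851), with no H2AK121ub peak at either gene. MYB29 and MYB76 lay in an H3K27me3 peak of 4927 bp (chr5:2446754-2451680), but each had an H2AK121ub peak of its own, of 1054 bp and 2312 bp. MYB104 and MYB81, 3928 bp apart, differed, as MYB104 carried no mark and MYB81 was wholly under H3K27me3. The next longest H3K27me3 peaks were 21999 bp at MYB79 (chr4:7827789-7849787) and 21512 bp at MYB117 (chr1:9263230-9284741), and the peak at MYB117 reached 7 other protein coding genes. After MYB31, the longest H2AK121ub peaks were 9295 bp at MYB63 (chr1:29778335-29787629) and 8952 bp at MYB112 (chr1:17697549-17706500). For 62 members an H2AK121ub peak reached no other protein coding gene, and for 37 members an H3K27me3 peak did so. Among H2AK121ub peaks that reached a protein coding gene body, 69.2% of those at members reached exactly 1, against 78.9% of those in the list. For H3K27me3 these shares were 48.6% at members and 63.2% in the list.

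Members were next set beside their closest relative by protein identity. There were 39 pairs of members that were closest to each other, with identities of 47.9% to 82.6%. The mark class was the same in 20 pairs (51.3%), against 32.7% of all 7381 pairs of members. In 32 pairs (82.1%) both bodies or neither body carried H3K27me3, against 51.5% of all pairs of members. The like pairs lay mostly among the 29 that were at least 60% identical, where 28 (96.6%) were alike, against 4 of the 10 pairs (40%) under that identity. Any body base under the mark counted here, so the 28 include MYB305 and MYB79, with 2.10% and 100% of the body covered. With the upstream window counted as well, H3K27me3 was carried alike in 29 of the 39 pairs (74.4%) and in 26 of the 29 closer ones (89.7%), against 54.0% of all pairs. For H2AK121ub, 27 of the 39 pairs (69.2%) and 21 of the 29 closer ones (72.4%) were alike, against 61.0% of all pairs. These shares were not tested against each other, since pairs of genes are not independent. Only MYB113 and MYB114 shared a peak, and some of the other pairs include a gene with no peak.

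The 5 closest pairs gave examples of each kind. MYB48 and MYB59 (82.6% identical) were only-H2AK121ub, with 83.0% and 100% of the body covered. MYB113 and MYB114 (81.3%, over the 139 residues of MYB114) were only-H3K27me3. MYB107 and MYB9 (79.1%) carried both marks. MYB124 and MYB88 (78.2%) were only-H2AK121ub. MYB100 and MYB22 (76.1%) formed the exception among the 29 when any body base under H3K27me3 counted. MYB22 lay wholly under H3K27me3 and MYB100 carried no mark.

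In 7 further pairs of at least 60% identity with different classes both genes carried H3K27me3, and H2AK121ub was present at a single gene of the pair. In MYB21 and MYB24 (75.7% identical) H2AK121ub covered 86.9% and 0% of the body. In MYB94 and MYB96 (73.3%) it covered 0% and 22.1%. In MYB84 and MYB68 (71.6%) it covered 98% and 0%, and both genes lay wholly under H3K27me3. MYB53, MYB42, MYB54 and MYB79 had 85.7%, 86.8%, 45.6% and 63.8% of the body under H2AK121ub, while their relatives MYB92, MYB85, MYB52 and MYB305 had none. The remaining pairs with different classes and at least 60% identity were MYB58 and MYB63 (70.8%), MYB61 and MYB50 (68.2%) and MYB65 and MYB33 (64.2%). In the last 2 of these the difference came from H3K27me3 in the upstream window alone, and in the pair of MYB58 and MYB63 from H2AK121ub. Under 60% identity, MYB118 and MYB115 (47.9%) also both lay wholly under H3K27me3, with 86.2% and 0% of the body under H2AK121ub.

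**Figure D5:**
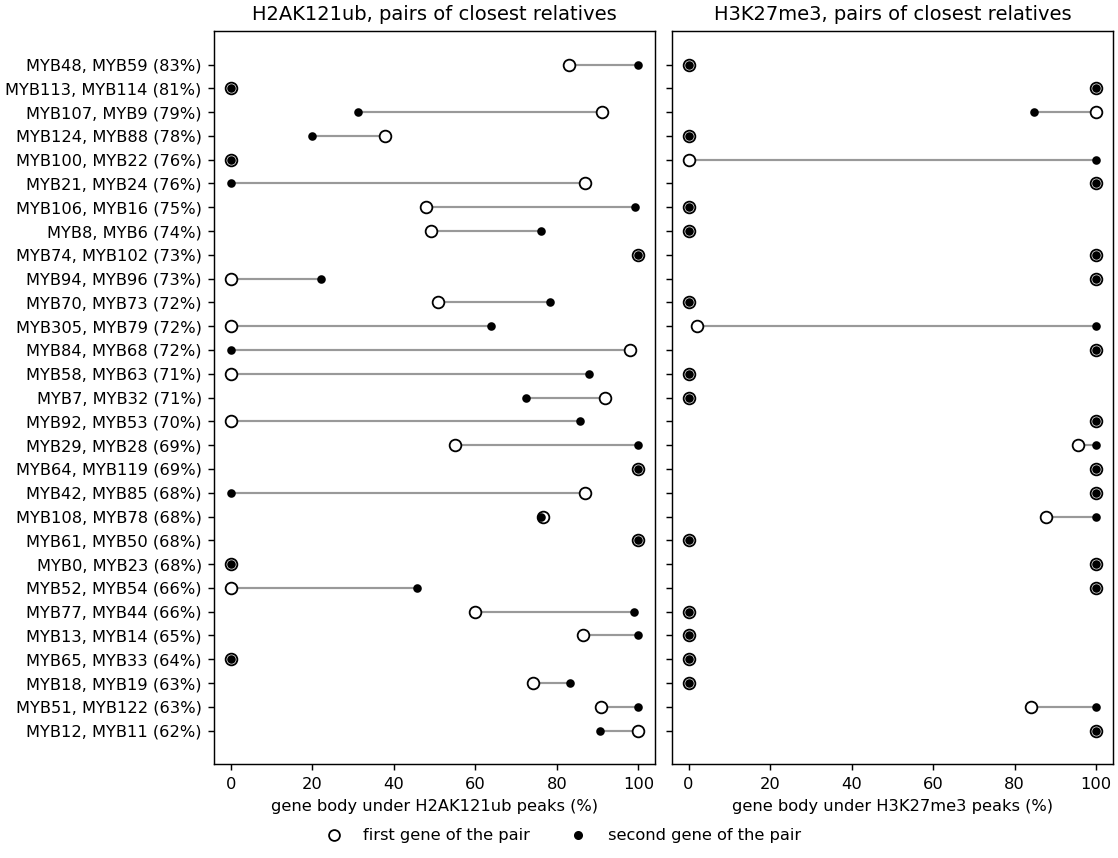
Percent of the gene body under H2AK121ub peaks (left) and H3K27me3 peaks (right) for the 29 pairs of closest relatives with at least 60% protein identity, with the identity in brackets, an open circle for the first gene and a filled circle for the second. On the right the circles of a pair mostly coincide at 0% or 100%, with MYB100 and MYB22 and MYB305 and MYB79 as the widest exceptions, whereas on the left many pairs are far apart.

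Gene structure and promoter letters were read for features the gene rule did not use. The 5 members with a single coding exon (MYB44, MYB70, MYB73, MYB77 and MYB91) were all only-H2AK121ub, a class that held 40.6% of the 6384 protein coding genes with 1 coding exon, and the first 4 of these members are close relatives. Of the 88 members with 3 coding exons, the most common structure in the family, 46 carried both marks, 17 were only-H2AK121ub, 16 only-H3K27me3 and 9 had neither. Of the 3182 protein coding genes with 3 coding exons, 30.5% carried both marks, 38.9% were only-H2AK121ub, 5.85% only-H3K27me3 and 24.7% had neither. GAGAGA on either strand stood in the window from 250 bp upstream to 50 bp downstream of the TSS in 44 members (36.1%), against 29.2% of all promoters of the same 300 bp length. By class it stood in 11 of 32 only-H2AK121ub members (34.4%), 23 of 58 with both marks (39.7%), 7 of 21 only-H3K27me3 members (33.3%) and 3 of 11 with neither mark (27.3%). Over all protein coding genes the same classes had it in 30.5% (only-H2AK121ub), 27.8% (both marks), 25.2% (only-H3K27me3) and 29.1% (neither). The telobox AAACCCTA on either strand stood in 3 members (2.46%), against 6.22% of all promoters. A match of letters is a description and no binding was measured.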

How the data were processed

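ChIP-seq of H2AK121ub and H3K27me3 was done on whole seedlings. Bowtie (mapping to TAIR10) and MACS2 (peak calling) were run by the authors, and the submitters' processing notes also name FastQC, deepTools, ChIPseeker and limma, without versions. The deposited values are wild-type peak positions (chromosome, start and end) with no score or depth, and they were used with equal weight. The study describes its final peaks as an intersection over replicates. Groups were taken from the sample titles.

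Peaks were set against the RefSeq annotation of TAIR10.1. A gene carried a mark when at least 1 bp of a peak lay in its body or in the 750 bp upstream of the TSS, and positions count from 1. Body cover is the percent of bases under peaks. The TSS profile was read every 50 bp. Coding sequences were translated from the genome, since no protein table was at hand, and aligned globally (BLOSUM62, gap opening 11, extension 1, end gaps free); identity is the number of identical residues over the length of the shorter protein. MYB103 is also a synonym of MYB80, and MYB111 of MYB48; loci decided.

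The members, role lists, named genes and alternatives were chosen with earlier results of these data known. Named were the longest stretches under both marks (5), all only-H3K27me3 members, all with neither mark, those with marks on separate bases or wholly under both, the 3 longest peaks of each mark, examples of each role, the 5 closest pairs and pairs over 60% identity with different classes. The 5 related genes shown first were picked outside these rules. Of 88 role names, 87 matched. No test was run. Python 3.11.15, numpy 2.4.6, pandas 2.3.3, Biopython 1.88 and matplotlib 3.10.9 were used, and the functions were tested on simulated data.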

Additional observations from a re-analysis of the deposited data

How the results depend on the processing

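The counts of the 6 mark states and both median covers were recomputed with the gene body alone, 1500 bp upstream, at least 200 bp under the mark, only peaks of 200 bp or more, gaps of up to 500 bp closed, primary symbols only, the 3 genes set aside added back, each chromosome left out, genes of 1000 to 2500 bp (added after seeing the data) and, for members with both marks, a shared base. Of 105 combinations, 102 stayed within 1.5 times the count or close to the median. Leaving out a chromosome removes its own members by construction: without chromosome 5, members with H3K27me3 numbered 51 (59.3% of 86) and only-H3K27me3 members 12 (14.0%), and without chromosome 3, members with neither mark numbered 6 (6.45% of 93). Over all alternatives the share with H2AK121ub lay between 72.4% and 75.6%, with H3K27me3 between 59.3% and 68.9%, and with both marks between 43.4% and 50.8%. The median H2AK121ub cover lay between 82.7% and 91.3%, and the median H3K27me3 cover was 100% throughout. No paired analysis was possible because each mark has a single list without separate replicates, so leaving out a replicate was not run either. With depth unknown, a gene without a peak cannot be told apart from a weakly marked gene.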
